A study of Mus musculus with 12 samples.

Results

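Oxidative phosphorylation is the step of respiration in which 5 protein complexes of the inner mitochondrial membrane turn electrons from nutrients into ATP. The genes described here are the nuclear genes of those complexes that the array annotation names by the stems Ndufa, Ndufb, Ndufc, Ndufs, Ndufv, Uqcr, Cox4 to Cox8 and Atp5, together with Sdha, Sdhb, Sdhc, Sdhd and Cyc1. The rule found 180 probe sets of 91 genes among 18193 genes with a single symbol, and where a gene had several, the brightest on average over the 12 arrays was used. Of the 91 genes, 34 encode subunits of complex I, 4 of complex II, 9 of complex III, 11 of complex IV, counting the supercomplex factor Cox7a2l, and 17 of complex V. The same stems also bring in 8 complex I assembly factors (Ndufaf1 to Ndufaf8) and 8 isoforms that are usual in tissues other than lymphoid tissue.

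Complex I takes electrons from NADH and complex II from succinate, complex III passes them to cytochrome c, and complex IV hands them to oxygen. Complexes I, III and IV pump protons, and complex V uses the proton gradient to make ATP. Resting T cells are small and quiescent, and stimulated T cells grow, divide and expand their mitochondria, which is the background to a comparison of naive with cultured or activated cells.

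The RNA came from spleen T cells of female C57BL/6 mice, aged 8 to 12 weeks in the sample labels and slightly younger in the study's text. One array was hybridised per sample. The 5 CD8+ NKT-like samples were CD8+ cells expanded on beads coated with anti-CD3 and anti-CD28 in high dose IL-2, and 3 cultured CD4+ samples had gone through the same expansion. The other 4 samples were CD8+ cells without expansion: 2 were fresh and naive, and 2 had been activated by soluble forms of these antibodies at low dose. The study describes the expanded cultures as independent, whereas nothing says whether the naive or activated samples came from separate mice. The p-values rest on a spread pooled over all groups, which takes in these independent cultures. Differences between mice within the naive or activated group may be missing from that spread. No naive CD4+ sample was analysed here, and the cultured CD4+ cells differ from the naive CD8+ cells in lineage as well as in culture.

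Cell identity and RNA quality differed between the groups in ways that touch every comparison with naive cells. Cd8a was at 10.91 log2 in NKT-like, 11.39 in naive and 10.30 in activated cells and at 6.73 in cultured CD4+ cells, and Cd4 was at group means of 6.88 to 7.14 in the CD8+ groups and higher in cultured CD4+ cells, as the labels say. The NK list held Ncr1, Klrb1c, Klrd1, Klrk1 and Klre1. Of 4 of these genes measured, none passed between NKT-like and naive cells, where 10.7% of all genes passed as higher. The summed linear signal of these genes was 7483, 8391, 1935, 1540 and 7026 in NKT-like replicates 1 to 5. It was 3068 and 3202 in the naive samples. The study itself reports several NK marker genes as higher in the NKT-like cells. They include CD244, Ly49e and NKG2A, which were not on the NK list used here. It also reports most of those cells as positive for NK markers by flow cytometry. Of 8 B cell genes measured, 7 were lower in NKT-like cells, 6 in cultured CD4+ cells and 3 in activated cells than in naive cells. The summed linear signal of that list was 31498 and 29040 in the naive samples, 4571 and 3153 in the activated samples and 855 to 1998 in the 8 expanded cultures. Red cell genes summed to 5457 and 8002 in the naive samples and to 513 to 678 in the other 10, and myeloid genes to 530 to 868 throughout. On the control probe sets for beta-actin, the log2 signal at the 3′ end exceeded that at the 5′ end by 1.35 in naive replicate 2, by 0.33 in naive replicate 1 and by -0.01 to 0.62 in the other samples. Gapdh was also dimmest in naive replicate 2, at 10.76 at the 3′ and 8.55 at the 5′ end, against 12.06 and 10.06 in naive replicate 1 and 13.09 or above and 11.49 or above elsewhere. The excess of the 3′ over the 5′ end of Gapdh was 2.01 and 2.21 in naive replicates 1 and 2 and 0.12 to 1.73 in the other samples. The part of the admixed cells and of RNA quality in the results that follow was not tested.

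The promoters of 4 members are printed because they separate what follows: Sdhd and Sdhb passed as higher than naive cells in all 3 other groups, Sdha in none, and Atp5g3 is the c-ring gene that passed in all 3. Each is the 250 bases upstream of the transcription start in RefSeq (mouse build GRCm38.p6), written 5′ to 3′ on the strand of the gene. Sdhd lies at chr9:50603850-50604099 on the minus strand, Sdhb at chr4:140961021-140961270 on the plus strand, Sdha at chr13:74350241-74350490 on the minus strand and Atp5g3 at chr2:73911327-73911576 on the minus strand. Capitals mark matches on either strand to GCGCANGCG (the nuclear respiratory factor NRF1), CCGGAAG (the ETS factors, among them GABP), TCAAGGTCA (the estrogen-related receptor ERRA), AAGATGGCG (YY1) and CACGTG (the E-box). None of these motifs contains another.
Sdhd: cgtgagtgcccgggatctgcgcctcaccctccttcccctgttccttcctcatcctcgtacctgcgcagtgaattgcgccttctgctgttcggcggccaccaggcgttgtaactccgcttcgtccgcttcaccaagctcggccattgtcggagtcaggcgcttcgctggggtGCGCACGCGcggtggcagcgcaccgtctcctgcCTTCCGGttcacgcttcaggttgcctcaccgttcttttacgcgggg
Sdhb: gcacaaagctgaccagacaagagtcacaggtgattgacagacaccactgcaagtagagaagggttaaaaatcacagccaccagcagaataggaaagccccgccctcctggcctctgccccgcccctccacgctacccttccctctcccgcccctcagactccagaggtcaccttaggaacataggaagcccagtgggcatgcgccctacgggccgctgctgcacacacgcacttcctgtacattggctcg
Sdha: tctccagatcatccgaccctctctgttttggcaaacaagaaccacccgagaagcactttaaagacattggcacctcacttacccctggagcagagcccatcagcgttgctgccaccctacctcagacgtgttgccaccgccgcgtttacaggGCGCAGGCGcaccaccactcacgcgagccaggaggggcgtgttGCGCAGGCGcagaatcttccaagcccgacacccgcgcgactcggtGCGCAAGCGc
Atp5g3: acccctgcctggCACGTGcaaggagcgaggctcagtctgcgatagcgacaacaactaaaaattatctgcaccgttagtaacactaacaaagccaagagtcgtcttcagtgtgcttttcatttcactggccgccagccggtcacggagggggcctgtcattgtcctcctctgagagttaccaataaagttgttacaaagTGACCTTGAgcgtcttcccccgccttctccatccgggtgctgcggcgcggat

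Sdhd has the NRF1 letters starting 79 bases and the ETS letters 46 bases before the start. Sdha has the NRF1 letters 3 times, starting 98, 55 and 10 bases before it. Atp5g3 has the ERRA letters 52 bases and the E-box 238 bases before the start, and no searched motif was found in the Sdhb stretch. Further matches reach past the start and so are not printed: ETS letters in Sdhb, NRF1 letters in Atp5g3 and ERRA letters in Sdhd. They are included in the shares that follow. A promoter was found in the RefSeq table for 74 of the 91 genes. Over windows of 300 bases that include 50 bases after the start, NRF1 letters stood in 27% of the members against 11.5% of the 14369 array genes with a promoter and 7.03% of all 27025 genes in the table. ETS letters stood in 25.7% of members against 15% and 9.93%, YY1 letters in 9.46% against 2.54% and 1.64%, ERRA letters in 2.7% against 0.404% and 0.466%, and the E-box in 8.11% against 10.3% and 8.09%. The members that passed and those that did not were counted separately, with no test of the difference. NRF1 letters were in 9 of the 34 members with a promoter that passed as higher in any group and in 11 of the other 40, and ETS letters in 9 and in 10. YY1 letters were in 4 and in 3, the E-box in 4 and in 2, and ERRA letters in 2 and in 0.

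The oxidative phosphorylation genes were mostly at a higher signal in expanded and activated cells than in naive CD8+ cells. A member passed where limma's moderated test, fitted to the 4 groups of all 12 arrays, gave a Storey q-value of 0.01 or less. Against naive cells, 25 of 91 members (27.5%) passed as higher in NKT-like cells, while 10.7% of all 18193 genes did. In cultured CD4+ cells 31 members (34.1%) passed as higher against 11.6% of all genes, and in activated CD8+ cells 6 members (6.59%) against 4.43%. One member, Ndufb4, passed as lower in NKT-like cells, where 6.86% of all genes did, and no member passed as lower in cultured CD4+ or activated cells, where 5.64% and 2.78% of all genes did (at an unadjusted p under 0.05, limma gave 2 members lower in each). The 3 comparisons share the same 2 naive samples.

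The members are bright, with 65 of 91 at a mean of 10 log2 or above. Among the 1588 other genes at that level, 30.5%, 32.9% and 17.3% passed as higher in NKT-like, cultured CD4+ and activated cells, and among the 65 bright members 30.8%, 38.5% and 9.23%. The median difference of the bright members was 0.45, 0.68 and 0.40 on the log2 scale against 0.44, 0.54 and 0.33 for the other bright genes. These are counts and medians set side by side, and none of them was tested against the other bright genes.

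**Figure D1:**
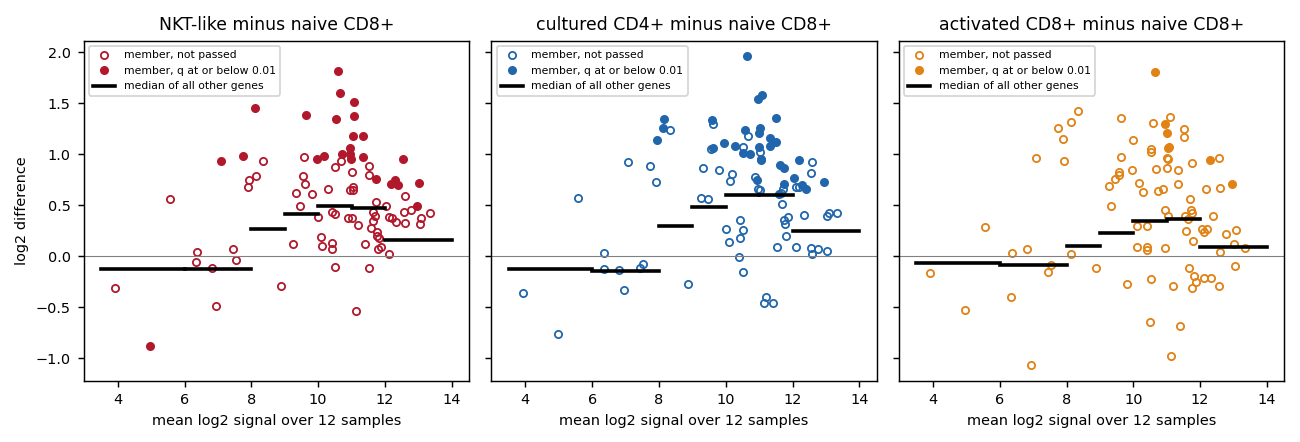
Log2 difference of each of the 91 genes from naive CD8+ cells (vertical axis) against its mean log2 signal over 12 samples (horizontal axis), for NKT-like, cultured CD4+ and activated CD8+ cells. Filled points passed at a q-value of 0.01, open points did not, and black lines are the median difference of all other genes within a band of signal; in each panel the other genes also lie above 0 at 8 log2 and above.

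Over all 91 genes the median log2 difference from naive cells was 0.49 (1.41-fold) in NKT-like cells, 0.70 (1.63-fold) in cultured CD4+ and 0.42 (1.34-fold) in activated cells, against -0.05 over all genes in each. It was above 0 for 81, 78 and 70 of the 91 genes. In bulk samples, fewer cells of a type and less RNA per cell cannot be told apart. The deposited naive arrays have a narrower spread of values than most others (an SD of 1.832 and 1.782, against 1.913 to 2.029 in the expanded cultures). Quantile normalization of the deposited values left a member median of 0.25, 0.33 and 0.18, and counts of 12 members higher and 2 lower in NKT-like, 10 and 1 in cultured CD4+ and 6 and 1 in activated cells. Cyclic loess left 0.13, 0.20 and 0.15, with 11 higher and 2 lower, 7 and 3, and 4 and 1. The median of the members stayed above 0 under each of these scalings, while the shares that passed as higher moved. With cyclic loess 12.1%, 7.69% and 4.4% of members passed in the 3 comparisons against 8.46%, 8.89% and 4.55% of all genes. Under both scalings the bright members passed less often than the other bright genes, in counts that were not tested. With quantile normalization their shares were 13.8% against 19% for NKT-like cells, 7.69% against 18% for cultured CD4+ cells and 6.15% against 14.8% for activated cells. With cyclic loess they were 12.3% against 17%, 6.15% against 16.5% and 4.62% against 12.7%. The medians went the other way, also without a test. The other bright genes had medians of 0.07, 0.13 and 0.08 with quantile normalization and 0.02, 0.03 and -0.03 with cyclic loess. The medians of all 91 members given above were higher in each.

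Single samples decided how many members passed. Leaving out naive replicate 2 left 2 members higher in NKT-like cells (Uqcrq and Ndufc2), 5 in cultured CD4+ cells (Sdhd, Sdhb, Ndufv2, Ndufc2 and Uqcrfs1) and 1 in activated cells (Ndufc2), although the member median stayed at 0.63, 0.70 and 0.49. In the same fit 2.32%, 3.5% and 0.731% of all genes passed as higher. Leaving out naive replicate 1 left 15, 10 and 5 members, or 16.5%, 11% and 5.49%, against 5.69%, 6.4% and 1.92% of all genes. The cultured CD4+ count fell to 6 and 7 without cultured CD4+ replicates 2 and 3 and rose to 44 without replicate 1. No member passed in activated cells without activated replicate 1 (at the reported setting limma gave 39 higher at an unadjusted p under 0.05), 10 passed without activated replicate 2 and 12 without cultured CD4+ replicate 1. The NKT-like count was 15 without NKT-like replicate 1. Of the 38 members higher than naive in any group, 25 were lower in naive replicate 2 than in naive replicate 1, 15 of them by over 0.5 log2, whereas 13 of the other 53 members were lower in replicate 2 and 1 by over 0.5. Among all genes 43.6% were lower in naive replicate 2, and 7.77% by over 0.5. For the other genes at a mean of 10 log2 or above these shares were 52.3% and 18.2%. These members were chosen with the same naive values, so the counts are a description.

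**Figure D2:**
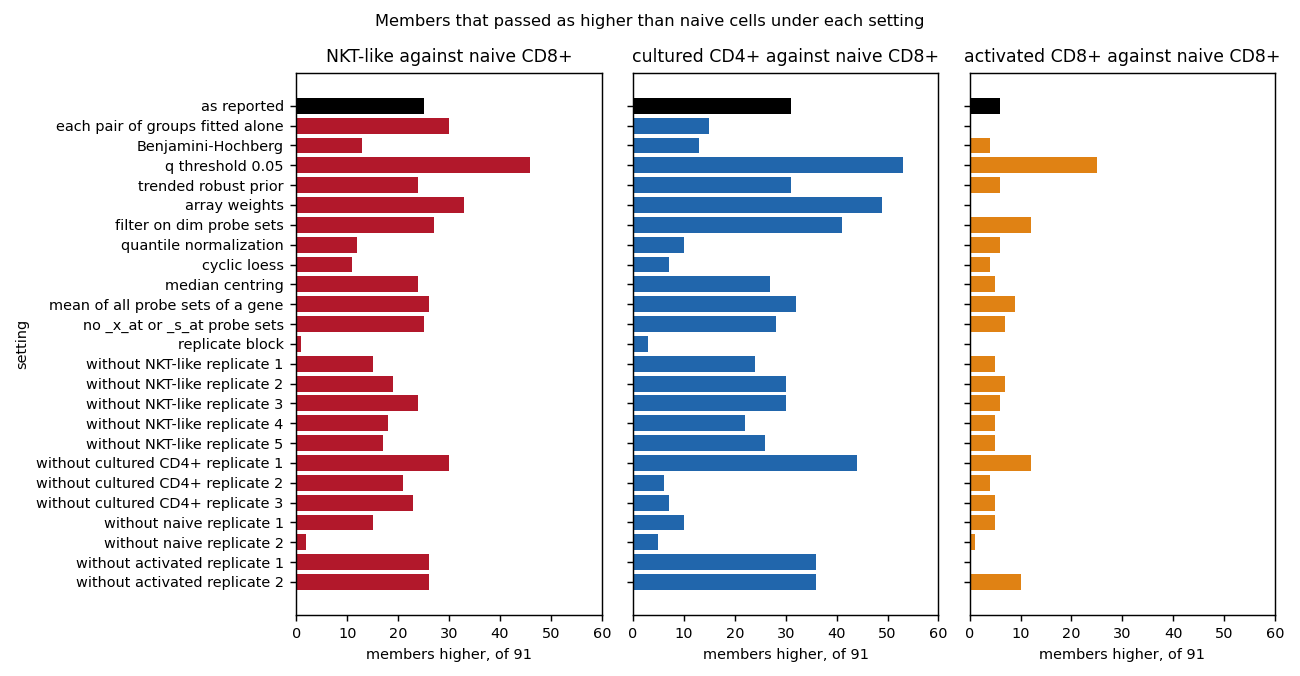
Number of the 91 genes that passed as higher than naive CD8+ cells (horizontal axis) under each processing setting or with 1 sample left out (vertical axis), in NKT-like, cultured CD4+ and activated CD8+ cells. The black bars are the reported counts of 25, 31 and 6; the shortest NKT-like bars are the replicate block (1) and the fit without naive replicate 2 (2).

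The samples of a group agreed in order of magnitude but not in detail. The median signal of the members was 10.92, 11.26, 10.90, 10.99 and 10.98 log2 in the 5 NKT-like samples, 10.87, 11.21 and 11.34 in cultured CD4+, 10.39 and 10.14 in naive and 11.14 and 10.65 in activated samples. Both naive samples were thus below the other 10. Activated replicate 2 and cultured CD4+ replicate 1 were the lowest of their groups.

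**Figure D3:**
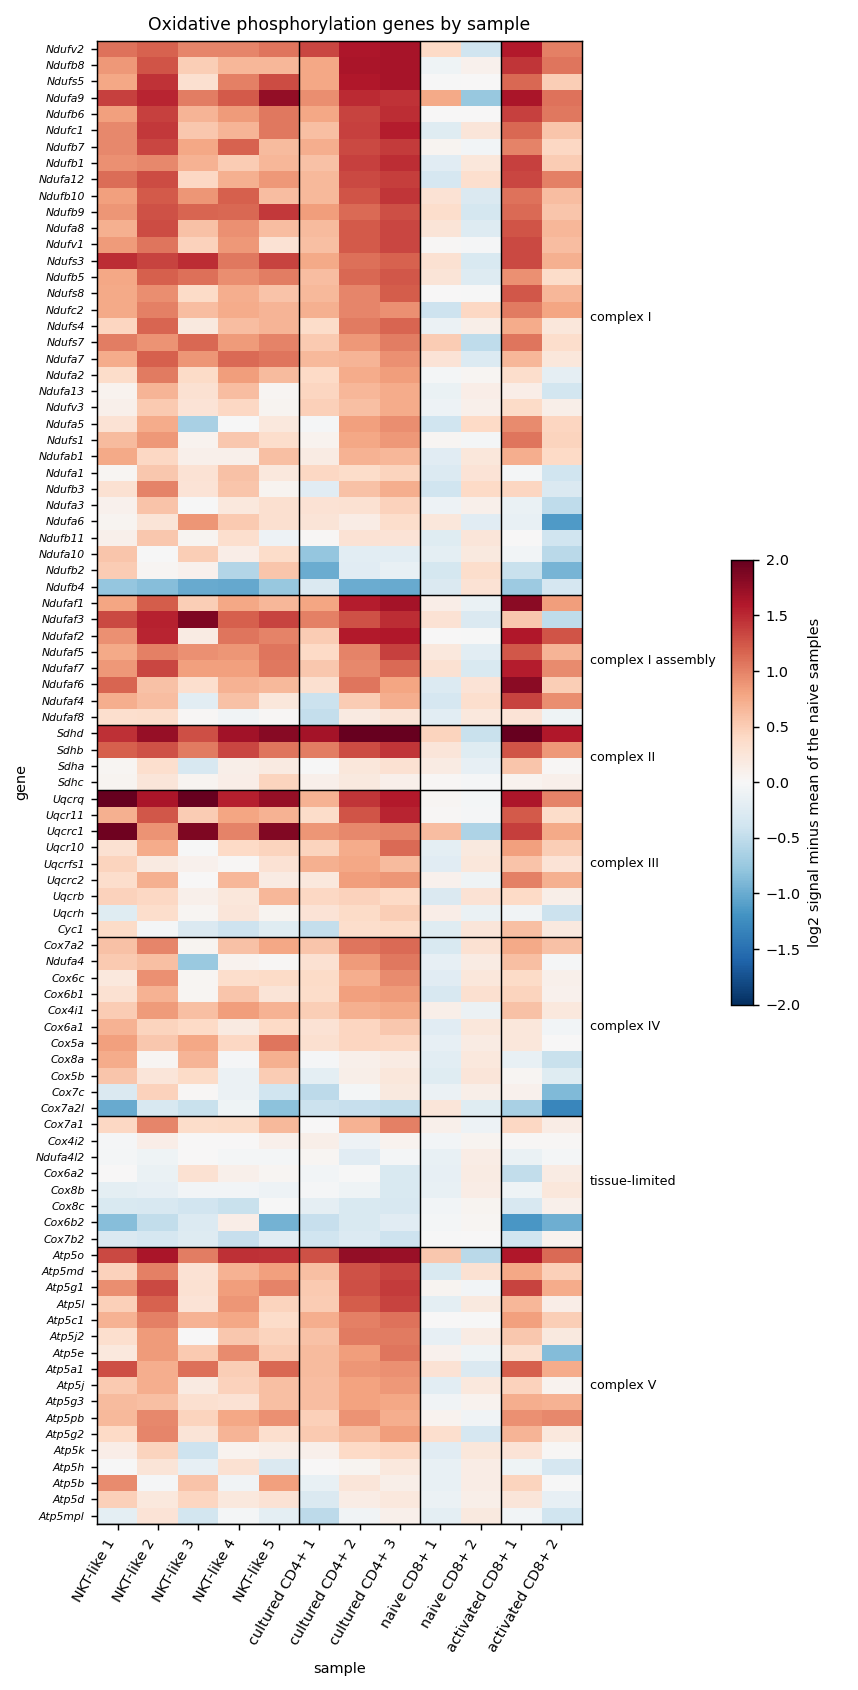
Log2 signal of each of the 91 genes (rows, by complex) in each of the 12 samples (columns), as the difference from the mean of the 2 naive CD8+ samples. Red is higher and blue lower than that mean; Sdhd is the deepest red of complex II, and of the tissue-limited isoforms Cox6b2 is blue in both activated samples and Cox7a1 pale red in most stimulated ones.

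Complex II, succinate dehydrogenase, also belongs to the citric acid cycle and is the only complex built wholly of nuclear-encoded proteins. Its 4 genes split. Sdhd, a membrane anchor, was at 10.65, 10.94, 10.48, 10.87 and 10.999 log2 in the NKT-like samples, 10.85, 11.26 and 11.33 in cultured CD4+, 11.19 and 10.79 in activated and 9.63 and 8.74 in naive samples. Every sample of the 3 other groups was above both naive samples. Lying wholly above both was a common outcome. For the NKT-like samples it held for 20.9% of all genes and for 44.3% of genes outside the 91 at a mean of 10 log2 or above. The cultured CD4+ shares were 25.6% and 56.9%, and the activated shares were 21.1% and 46.4%. Sdhd rose 3.03-fold in NKT-like (log2 difference 1.60 ± 0.24 SE, q = 0.000401), 3.89-fold in cultured CD4+ (1.96 ± 0.26, q = 0.000208) and 3.49-fold in activated cells (1.80 ± 0.28, q = 0.00189). Sdhb, which carries the iron-sulfur clusters, was at 11.10 to 11.40 in NKT-like, 11.09 to 11.49 in cultured CD4+, 11.31 and 10.93 in activated and 10.29 and 9.82 in naive samples. The groups again did not overlap with the naive samples, and Sdhb rose 2.27-fold (q = 0.000271), 2.38-fold (q = 0.00034) and 2.09-fold (q = 0.00424). Both calls were lost in NKT-like cells without naive replicate 2 (q = 0.0131 for Sdhd and 0.0118 for Sdhb), and in activated cells without naive replicate 2 or activated replicate 1, while in cultured CD4+ cells both held with each of the 12 samples left out.

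Sdha, the flavoprotein that oxidises succinate, was at 9.98 to 10.64 log2 in NKT-like, 10.30 to 10.61 in cultured CD4+, 10.86 and 10.33 in activated and 10.47 and 10.14 in naive samples. These ranges overlap, and the log2 differences from naive cells were 0.07, 0.17 and 0.29 (q = 0.335, 0.239 and 0.312). Sdhc, the other membrane anchor, depended on the probe set. On its brighter one it was at 9.94 to 10.42 in all 12 samples, with log2 differences of 0.18, 0.14 and 0.09 (q = 0.106, 0.182 and 0.472). On the other it was at 9.17 to 9.87 in NKT-like, 9.11 to 9.63 in cultured CD4+, 9.47 and 8.96 in activated and 8.80 and 7.62 in naive samples. There Sdhc rose 2.42-fold in NKT-like and 2.36-fold in cultured CD4+ cells (q = 0.00542 and 0.00946) and was 2.01-fold higher in activated cells without passing (q = 0.0711). The brighter Sdhc probe set and a second Sdhd probe set are marked as open to binding other sequences. That second Sdhd probe set had log2 differences of 0.32, 0.92 and 1.16 with no call (q = 0.144, 0.0114 and 0.0152), and there naive replicate 2 (7.96) was above naive replicate 1 (7.46).

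**Figure D4:**
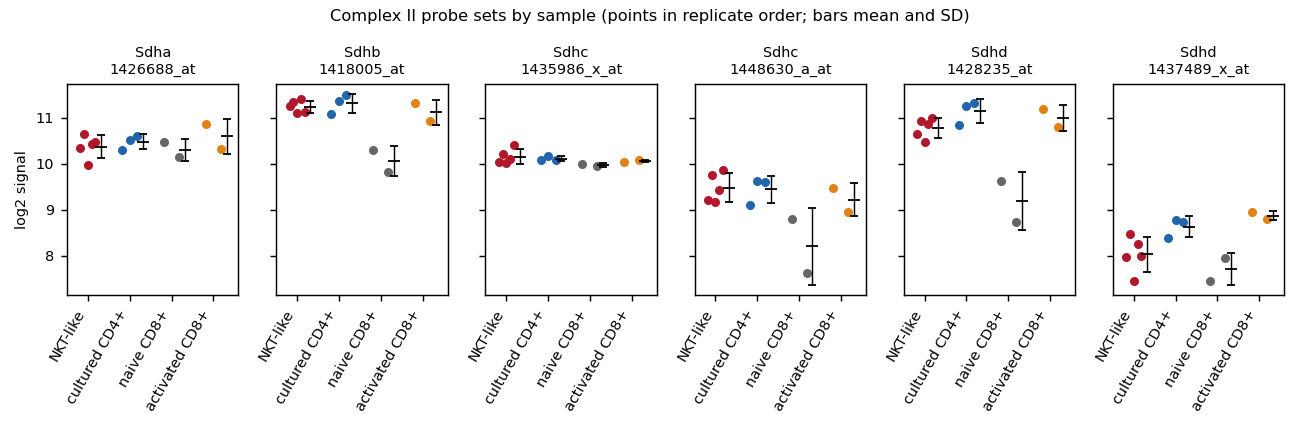
Log2 signal (vertical axis) of 6 probe sets of complex II genes by group (horizontal axis), with a point per sample in replicate order and the group mean with its SD beside it. Sdhb and the first Sdhd probe set put both naive samples below all others, Sdha and the first Sdhc probe set do not, and the second Sdhc and Sdhd probe sets differ from the first.

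Complex I, the NADH dehydrogenase, has the most members. Of its 34 genes, 11 passed as higher in NKT-like cells, 17 in cultured CD4+ and 2 in activated cells, with median log2 differences of 0.73, 0.86 and 0.71. Among all genes 10.7%, 11.6% and 4.43% passed as higher. Among the genes outside the 91 at a mean of 10 log2 or above, 30.5%, 32.9% and 17.3% did. Ndufv2, a core iron-sulfur subunit of the NADH-oxidising arm, was at 10.89 to 11.09 log2 in NKT-like, 11.26, 11.54 and 11.57 in cultured CD4+, 11.51 and 10.92 in activated and 10.31 and 9.53 in naive samples. It rose 2.08-fold (q = 0.0018), 2.91-fold (q = 0.000361) and 2.46-fold (q = 0.00454), and every sample was above the naive ones. Ndufb6, an accessory subunit of the membrane arm, was at 10.09 in both naive samples and at 10.78 or above in all others. It rose 1.94-fold in NKT-like (q = 0.00353), 2.31-fold in cultured CD4+ (q = 0.00172) and 2.31-fold in activated cells (q = 0.00735).

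The largest complex I changes in NKT-like cells were those of Ndufa9, an accessory subunit, and of Ndufs3, a core subunit of the arm that reaches into the matrix. Ndufs3 was at 11.02, 10.89, 11.02, 10.60 and 10.90 log2 in NKT-like and at 9.85 and 9.23 in naive samples and rose 2.54-fold (q = 0.000499). It also rose in cultured CD4+ cells (2.02-fold, q = 0.00383), whereas the same 2.02-fold in activated cells did not pass (q = 0.0147). Ndufa9 rose 2.60-fold in NKT-like cells (q = 0.00652), with naive samples as far apart as 9.25 and 7.75. In cultured CD4+ cells the largest changes after Ndufv2 included Ndufb8, a membrane arm subunit, which was at 11.42, 12.27 and 12.29 against 10.55 and 10.73 in naive cells and rose 2.55-fold (q = 0.00246). Without naive replicate 2, the complex I genes that passed as higher were Ndufc2 in each comparison and Ndufv2 in cultured CD4+ cells, so the other complex I calls given here were lost (q = 0.0204 for Ndufs3 and 0.174 for Ndufa9 in NKT-like cells). The Ndufa9 call was also lost without any 1 of NKT-like replicates 1, 2, 4 and 5, that of Ndufb8 without naive replicate 1 or cultured CD4+ replicates 2 or 3, that of Ndufs3 in cultured CD4+ cells without cultured CD4+ replicates 2 or 3, and those of Ndufv2 and Ndufb6 in activated cells without activated replicate 1. The Ndufb6 calls were lost in all 3 comparisons without naive replicate 1, in cultured CD4+ and activated cells without cultured CD4+ replicate 2, and in activated cells without any 1 of NKT-like replicates 1, 4 and 5.

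Genes of one complex did not all share this pattern. Ndufb4 fell in NKT-like cells (log2 difference -0.88, q = 0.00584), but its probe set is dim, at 4.60 to 4.86 against 5.33 and 5.92, and brighter probe sets that list Ndufb4 together with other genes fall outside the rule. That call did not hold without naive replicate 2 or any 1 of NKT-like replicates 1 to 4. Ndufb2 and Ndufa10, both accessory subunits, had log2 differences of 0.12 and 0.31 in NKT-like, -0.46 and -0.40 in cultured CD4+ and -0.69 and -0.30 in activated cells, none of which passed.

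The assembly factors build complex I and are not part of the finished enzyme. Of the 8, 3 passed as higher in NKT-like cells, 2 in cultured CD4+ and none in activated cells, where Ndufaf7 had limma's lowest q, 0.01 after rounding and just above the threshold. The shares of all genes that passed as higher were 10.7%, 11.6% and 4.43%. Ndufaf3, which takes part in building the arm that binds ubiquinone, was at 8.51, 8.73, 9.07, 8.39 and 8.55 log2 in NKT-like, 8.20, 8.48 and 8.67 in cultured CD4+, 7.48 and 6.92 in naive and 7.74 and 6.69 in activated samples. The expanded cultures thus lay above both other groups. Ndufaf3 rose 2.74-fold in NKT-like cells (q = 0.0016), and in cultured CD4+ cells 2.38-fold (q = 0.00546) and was 1.01-fold of naive in activated cells (q = 0.615). Ndufaf5 and Ndufaf7, enzymes that modify complex I subunits during assembly, rose in NKT-like cells by 1.91-fold and 1.97-fold (q = 0.00674 and 0.00532). Ndufaf1, an early factor of the membrane arm, rose 2.54-fold in cultured CD4+ cells (q = 0.0051) and was 2.49-fold higher in activated cells without passing (q = 0.0209). The calls of these 4 genes against naive cells were lost without naive replicate 2. Those of Ndufaf1 and Ndufaf3 in cultured CD4+ cells were also lost without naive replicate 1 or cultured CD4+ replicates 2 or 3, that of Ndufaf7 without NKT-like replicate 5, and that of Ndufaf5 without any 1 of the NKT-like samples, naive replicate 1 or cultured CD4+ replicate 2.

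Complex III takes electrons from ubiquinol to cytochrome c. Of its 9 genes, 2 passed as higher in NKT-like and 2 in cultured CD4+ cells and none in activated cells (lowest q 0.0109, limma). Among all genes 10.7%, 11.6% and 4.43% passed as higher. The shares were 30.5%, 32.9% and 17.3% among the genes outside the 91 at a mean of 10 log2 or above. Uqcrq, a small subunit near the ubiquinone site, was at 11.35, 10.94, 11.39, 10.86 and 11.04 log2 in NKT-like, 10.002, 10.74 and 10.88 in cultured CD4+, 10.93 and 10.30 in activated and 9.34 and 9.27 in naive samples. It had the largest change of all 91 genes in NKT-like cells, a rise of 3.52-fold (log2 difference 1.81 ± 0.25, q = 0.000252) that held with each of the 12 samples left out, and it rose 2.36-fold in cultured CD4+ cells (q = 0.00359), a call lost without either naive replicate or cultured CD4+ replicates 2 or 3. The Uqcrq probe set used is marked as open to binding other sequences. The 3 other Uqcrq probe sets are dim, at means of 6.38 to 7.12, and the brightest of them had log2 differences of -0.18 in NKT-like and -0.18 in cultured CD4+ cells. Uqcrc1, a core protein, was at 11.96, 10.92, 11.89, 11.02 and 11.87 in NKT-like and at 10.64 and 9.39 in naive samples. It rose 2.86-fold in NKT-like cells (q = 0.00575), a call lost without naive replicate 2 or any 1 of NKT-like replicates 1, 3 and 5.

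The redox subunits of complex III behaved differently from these. Uqcrfs1, the Rieske iron-sulfur protein, was at 12.13, 12.19 and 12.06 log2 in cultured CD4+ and 11.20 and 11.64 in naive samples and rose 1.63-fold (q = 0.00464), and in NKT-like cells its log2 difference was 0.20 (q = 0.142). That call was lost without naive replicate 1 and without cultured CD4+ replicates 2 or 3. Cyc1, the cytochrome c1 subunit, was at 11.09 to 11.88 in NKT-like, 11.02 to 11.87 in cultured CD4+, 12.09 and 11.69 in activated and 11.25 and 11.74 in naive samples. Its groups overlap, with log2 differences of -0.12, 0.09 and 0.40 (q = 0.317, 0.353 and 0.327).

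Complex IV, cytochrome c oxidase, had these calls as higher: 2 of 11 genes in NKT-like cells, 1 in cultured CD4+ and none in activated cells (lowest q 0.0378, limma), where 10.7%, 11.6% and 4.43% of all genes passed. Cox4i1, the ubiquitous form of the subunit that binds ATP, was at 12.38, 12.73, 12.48, 12.71 and 12.57 log2 in NKT-like, 12.37, 12.59 and 12.63 in cultured CD4+ and 12.00 and 11.75 in naive samples. It rose 1.63-fold in NKT-like cells (q = 0.00223), and in cultured CD4+ cells 1.57-fold (q = 0.00511), calls that did not hold without naive replicate 2, nor in cultured CD4+ cells without naive replicate 1 or cultured CD4+ replicates 2 or 3. Cox5a rose 1.65-fold in NKT-like cells (q = 0.00448), from 12.45 and 12.78 in naive samples to 13.02 to 13.68, a call lost without either naive replicate or NKT-like replicate 1. Cox7a2l, which helps complexes III and IV join into supercomplexes, went the other way without passing: it was at 11.88 and 11.40 in naive and 10.98 and 10.33 in activated samples (log2 difference -0.98, q = 0.0378). Cox7c, a ubiquitous subunit, is represented by a dim probe set with a mean of 6.34.

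Complex V, the ATP synthase, has a catalytic F1 head, a peripheral stalk and a rotating ring of c subunits. Of 17 genes, 5 passed as higher in NKT-like cells, 7 in cultured CD4+ and 2 in activated cells. The shares were 10.7%, 11.6% and 4.43% among all genes. They were 30.5%, 32.9% and 17.3% among the genes outside the 91 at a mean of 10 log2 or above. Atp5o, the stalk protein that holds the head, was at 11.20, 11.53, 10.91, 11.36 and 11.34 log2 in NKT-like, 11.16, 11.66 and 11.61 in cultured CD4+, 11.49 and 11.02 in activated and 10.42 and 9.36 in naive samples. It rose 2.60-fold in NKT-like cells (q = 0.00191), and in cultured CD4+ cells 3.00-fold (q = 0.00147) and was 2.57-fold higher in activated cells without passing (q = 0.0128). Both calls were lost without naive replicate 2 (q = 0.0583 and 0.0261).

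The 2 complex V genes that passed in all 3 comparisons belong to the membrane part. Atp5pb, the stalk's b subunit, was at 11.71 and 11.58 log2 in naive samples and at 12.09 or above elsewhere and rose 1.68-fold, 1.63-fold and 1.92-fold (q = 0.00233, 0.00514 and 0.00514). On its second probe set it rose 3.31-fold, 2.87-fold and 2.64-fold (q = 0.000213, 0.000794 and 0.00568). Atp5g3, a c-ring gene, was at 12.38 and 12.53 in naive samples and at 12.74 or above elsewhere and rose 1.40-fold, 1.66-fold and 1.63-fold (q = 0.00616, 0.0013 and 0.00661). Without either naive replicate the NKT-like and cultured CD4+ calls on both main probe sets were lost. Those of Atp5g3 in NKT-like cells were also lost without any 1 of NKT-like replicates 1, 2 and 5, and those of Atp5pb in cultured CD4+ cells without cultured CD4+ replicates 2 or 3. In activated cells the Atp5pb and Atp5g3 calls on the main probe sets were lost without either naive or either activated replicate, and that of Atp5g3 also without cultured CD4+ replicates 2 or 3. In the F1 head, Atp5a1, the alpha subunit, rose 1.93-fold in NKT-like cells (q = 0.00553), whereas Atp5b, the catalytic beta subunit, had log2 differences of 0.45, 0.07 and 0.22 and did not pass. The Atp5a1 call was lost without either naive replicate or any 1 of NKT-like replicates 1, 3 and 5. Atp5md, a small protein of synthase dimers, rose 2.11-fold in cultured CD4+ cells (q = 0.00682), a call lost without either naive replicate, cultured CD4+ replicates 2 or 3, or NKT-like replicate 4.

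**Figure D5:**
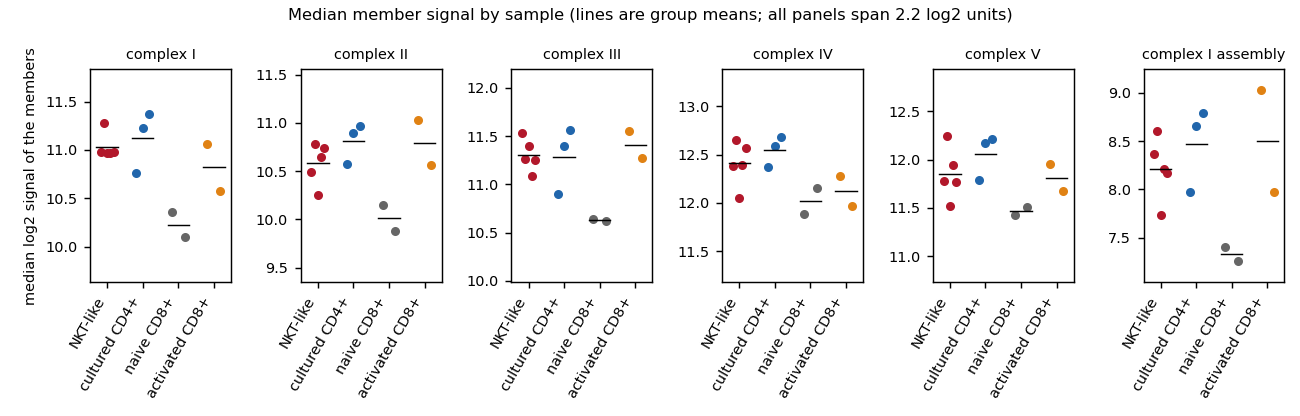
Median log2 signal of the members of each complex and of the assembly factors (vertical axis) in each sample, by group (horizontal axis), with a line at the group mean. Both naive samples lie below all others in each panel but complex IV, where naive replicate 2 (12.15) is above NKT-like replicate 3 (12.05) and activated replicate 2 (11.97).

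The 8 tissue-limited isoforms are not known as T cell genes. Cox4i2 (lung), Cox6a2, Cox7a1 and Cox8b (heart and muscle), Cox6b2, Cox7b2 and Cox8c (testis) and Ndufa4l2 (induced by low oxygen) gave 0 calls among 8 genes in each of the 3 comparisons (limma; lowest q 0.0365, 0.0317 and 0.022). Among all genes 10.7%, 11.6% and 4.43% passed as higher and 6.86%, 5.64% and 2.78% as lower. The signals of the isoforms ran from 3.70 to 4.24 log2 for Cox7b2 up to 8.64 to 9.19 for Cox8c. The widest difference was that of Cox6b2 in activated cells, at 6.24 and 6.43 against 7.37 and 7.44 in naive cells (log2 difference -1.07, q = 0.022). The median of a whole array was 6.23 to 6.42. Leaving out NKT-like replicate 4 let Cox6b2 pass in activated cells, cultured CD4+ replicate 1 let Cox7a1 pass in cultured CD4+ cells, and either activated replicate let Cox7b2 pass in NKT-like and in cultured CD4+ cells.

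Few calls were made among the 3 stimulated groups, for the members as for all genes. Between NKT-like and cultured CD4+ cells, no member passed in either direction by limma (3 higher and 6 lower at an unadjusted p under 0.05), while 1.24% of all genes passed as higher and 1.85% as lower in NKT-like cells. The member median was -0.10, and single genes ran from -0.64 to 0.71. Between NKT-like and activated cells 1 member, Ndufaf3, passed as higher (log2 difference 1.43, q = 0.00689) and none as lower (13 and 1 at an unadjusted p under 0.05), against 3.36% and 1% of all genes. It was named after its values were seen, and its call was lost on leaving out any 1 of the 5 NKT-like samples, cultured CD4+ replicates 2 or 3 or activated replicate 2, whereas 3 members passed without activated replicate 1. Between cultured CD4+ and activated cells no member passed in either direction (12 and 1 at an unadjusted p under 0.05), against 1.53% and 0.319% of all genes. A missed threshold here does not show equal levels.

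Genes that serve the complexes without belonging to them were counted by the same test, by which 10.7%, 11.6% and 4.43% of all genes passed as higher in NKT-like, cultured CD4+ and activated cells. Of 13 electron and metabolite carriers measured, 6 passed as higher than naive in NKT-like cells, 8 in cultured CD4+ and 7 in activated cells. Etfb and Etfa, the 2 chains of the flavoprotein that brings electrons from fatty acid oxidation, were among them: Etfb rose 3.36-fold, 4.03-fold and 2.24-fold (q = 5.13e-05, 4.02e-05 and 0.00502) and Etfa 2.22-fold, 2.63-fold and 1.94-fold. Etfdh, which hands those electrons to ubiquinone, rose 2.91-fold in cultured CD4+ cells (q = 0.000672). Vdac2 and Vdac3, outer membrane channels, rose 2.62-fold and 2.38-fold in activated cells (q = 0.00329 and 0.00287). The activated-cell calls of Etfb, Vdac2 and Vdac3 did not hold without naive replicate 2 or activated replicate 1, nor that of Vdac3 without naive replicate 1, and the Etfdh call did not hold without naive replicate 2.

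Set against the same shares of all genes, of 32 assembly factors of complexes II to V 6 passed as higher in NKT-like cells, 5 in cultured CD4+ and 2 in activated cells. Uqcc2, a complex III factor, rose 3.78-fold in NKT-like and 3.57-fold in cultured CD4+ cells (q = 0.000588 and 0.00126). Cmc1, a complex IV factor, rose 3.17-fold in NKT-like cells (q = 0.000348). Sco1, a copper chaperone of complex IV, rose 4.51-fold in cultured CD4+ (q = 4.79e-05) and 2.66-fold in activated cells (q = 0.00328) and its log2 difference between NKT-like and cultured CD4+ cells was -1.49 (q = 0.00062). Cox17, another copper chaperone, rose 2.57-fold in activated cells (q = 0.00575), Cox19 2.56-fold in cultured CD4+ cells (q = 0.00105) and Sdhaf3, a complex II factor, 2.49-fold in NKT-like cells (q = 0.00626). The Cmc1 and Cox17 probe sets used are marked as open to binding other sequences. With such probe sets set aside, the log2 difference was -0.15 for Cmc1 in NKT-like and -0.0256 for Cox17 in activated cells, and neither passed. The Uqcc2, Cmc1 and Sdhaf3 calls did not hold without naive replicate 2, that of Cox19 not without naive replicate 1, that of Sdhaf3 also not without naive replicate 1 or NKT-like replicates 2, 4 or 5, that of Sco1 in activated cells not without naive replicate 1 or activated replicate 1, and that of Cox17 not without either naive replicate or activated replicate 1.

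The regulators of these genes were counted against the same shares of all genes, 10.7% higher and 6.86% lower in NKT-like cells. Of 13, Tfb2m, a mitochondrial transcription factor, rose 2.83-fold in NKT-like cells (q = 0.00184) and Ppargc1b, a coactivator of respiratory genes, fell to 0.574 of the naive level there (q = 0.00895), and none passed in cultured CD4+ or activated cells. The Tfb2m call was lost without naive replicate 2, and that of Ppargc1b without any 1 of 9 samples, the exceptions being NKT-like replicate 1 and both activated samples. Esrra, which encodes ERRA, was higher in NKT-like than in activated cells (log2 difference 1.06, q = 0.00503), where 3.36% of all genes passed as higher. It did not pass against naive cells in any group. Esrra was named after its values were seen, and its call was not checked with samples left out. Nrf1 and Gabpa had log2 differences of -0.07 and 0.08 in NKT-like, 0.55 and 0.17 in cultured CD4+ and 0.21 and 0.46 in activated cells, none of which passed.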

How the data were processed

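RNA of 12 samples was measured on Affymetrix arrays. The values used are the log2 signals that the authors deposited after RMA (background correction, quantile normalization and probe set summary); its version, and whether all 12 arrays were normalized together, are not given in the sources used here. The labels and the study differ on mouse age and on the amount of labelled RNA. Of 45101 probe sets, 64 controls were left out of the tests and used only for RNA quality, and 45037 were tested; 34945 list 1 gene symbol, 932 several and 9160 none. All 91 member genes matched RefSeq by Entrez identifier.

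The deposited values were fitted without further scaling by limma (3.58.1, R 4.3.3) with a mean for each of the 4 groups over the 12 arrays; eBayes had 8 residual and 3.03 prior degrees of freedom, and Storey q-values were computed per comparison over all tested probe sets. Folds are the log2 differences turned back to a linear scale, and errors are the standard error of the fit. The model was tested on simulated data first. Depth has no meaning for arrays, and the 2 naive and 2 activated samples limit the precision. The members, lists and tests were chosen with earlier results of these data known.

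The genes named are the 2 with the largest passing change per complex and comparison, members against the majority, all complex II genes, Cyc1, the tissue-limited isoforms and up to 3 genes of each other list; others named are examples chosen after their values were seen. Alternatives tried were other fits, thresholds, filters, scalings and probe set choices, the replicate number as a block, and leaving out each sample.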

Additional observations from a re-analysis of the deposited data

How the results depend on the processing

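Counts of members depended strongly on the processing, while the member medians against naive cells stayed above 0 under every alternative run. The counts higher than naive cells in NKT-like, cultured CD4+ and activated cells were 25, 31 and 6 as reported. Each pair fitted alone gave 15 in cultured CD4+ and 0 in activated cells, with 2 lower in NKT-like cells. Benjamini-Hochberg gave 13 in NKT-like and 13 in cultured CD4+ cells and 0 lower. A q threshold of 0.05 gave 46, 53 and 25 higher and 2, 2 and 2 lower, and 4 higher than activated in NKT-like, 2 in cultured CD4+ cells and 1 lower in the NKT-like cells when set against cultured CD4+ cells. Array weights gave 49 and 2 lower in cultured CD4+ and 0 in activated cells. The filter on dim probe sets gave 12 in activated cells and 0 lower in NKT-like cells. Quantile normalization gave 12 and 10, with 2, 1 and 1 lower, and cyclic loess 11 and 7, with 2, 3 and 1 lower; the member medians were 0.25, 0.33 and 0.18, and 0.13, 0.20 and 0.15. Without probe sets that may bind several sequences, 2 were lower in NKT-like and 1 in cultured CD4+ cells. The single NKT-like call over activated cells became 0 with each pair alone, Benjamini-Hochberg, array weights, median centring or the replicate block. The cause of each move was not tested.

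Leaving out 1 sample gave 2 to 30 members higher and 0 to 2 lower in NKT-like, 5 to 44 and 0 to 1 in cultured CD4+ and 0 to 12 and 0 to 1 in activated cells against naive, 0 to 3 higher than activated in NKT-like and 0 to 3 in cultured CD4+ cells. Member medians ran from 0.40 to 0.63, 0.59 to 0.83 and 0.23 to 0.66 against naive, from -0.23 to -0.04 for NKT-like against cultured CD4+, from -0.10 to 0.26 for NKT-like against activated and from -0.0033 to 0.3976 for cultured CD4+ against activated cells.

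Groups share replicate numbers without a stated pairing. Correlations of the deviations of same-numbered samples over probe sets ran from -0.50 to 0.28. They were 0.28 for both activated and naive pairs, which must be equal, because deviations within a group of 2 samples mirror each other. The value was 0.132 for NKT-like and naive replicate 2. It was 0.057 and 0.03 for NKT-like and cultured CD4+ replicates 1 and 2, and 0.001 for NKT-like and activated replicate 2. The rest were negative, and the numbers were not taken to pair the samples. With the replicate number as a block, 1, 3 and 0 members were higher than naive and 0, 0 and 1 lower, so that the counts in activated cells turned direction. In that fit 1.1%, 3.3% and 0% of members were higher against 2.14%, 4.06% and 0.77% of all genes.

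Signs turned when probe sets marked as binding several sequences were set aside: Uqcrq to -0.18 in NKT-like and -0.18 in cultured CD4+, Cmc1 to -0.15 in NKT-like and Cox17 to -0.0256 in activated cells. With all samples in, 863 of the named-gene values kept their side of the threshold, 123 fell below it, 11 rose past it and 4 turned sign.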

Other observations

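Atp5b, the catalytic subunit of the ATP synthase, was unevenly spread over the NKT-like samples, at 13.48, 12.50, 13.10, 12.45 and 13.34 log2 in replicates 1 to 5, with the naive samples at 12.38 and 12.67. Other probe sets of the members called higher than naive gave a further view: 9 of 26 passed in the same direction in NKT-like cells and 14 of 34 in cultured CD4+ cells. In each comparison 1 passed in the opposite direction, a dim probe set of Atp5c1, the gamma subunit of the synthase, with a mean of 6.46 and log2 differences of -0.90 and -0.75 (limma, q = 0.000233 and 0.00112).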
